A study of Mus musculus with 24 samples.

Results

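The β cells of sons and daughters born to mothers on a high-fat diet were compared at the abundant autosomal genes. These were all genes outside chromosome X, chromosome Y and the mitochondrial genome with a mean of at least 20 CPM (the counts of a gene relative to all counts of the library, on the usual fixed scale) in either set of 4 libraries, 6922 of the 33619 genes in the count table. Of these, 6210 reached 20 CPM in both sets, 245 in HFD males only and 467 in HFD females only. Per the labels, wild-type CD1 females of about 7 weeks were fed for 2 weeks on high-fat food (HFD), low-protein food (LPD) or control food (ND) and then crossed with Ins1Apple males, whose reporter allele marks β cells with the fluorescent protein Apple. All offspring ate the control diet after birth. Their islets were taken at about 7 weeks, and Apple-positive cells were sorted. The groups were HFD males, HFD females, ND males, ND females, LPD males and LPD females, with 4 libraries each, and the labels give all 24 the Ins1Apple genotype. The labels name no litter, dam or sequencing batch and do not say whether a library was 1 animal, so p-values measure only the spread between these samples. Diets follow the column names of the count table. The library numbers that head those columns are given to other groups in the sample labels: by number the 8 HFD columns would be ND libraries of the same sexes, and the LPD columns would be HFD. The same numbers would exchange the sexes of the 8 ND columns, which would be LPD libraries. Xist stood at 667 to 1140 CPM in the ND female columns and summed Y-linked genes at 141 to 178 CPM in the ND male columns, so there the numbers go against the sex and the names do not. These genes do not bear on the diet of the HFD columns.

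Sons and daughters carry the same autosomal genes in the same number of copies, unlike those of the sex chromosomes. Mouse β cells express receptors for estrogen, androgen and prolactin, and in many mouse models of diabetes males lose control of blood glucose earlier than females. Insulin itself comes from Ins1 and Ins2. Libraries depleted of ribosomal RNA, as here, also hold RNAs without a poly(A) tail, such as histone transcripts and small nuclear RNAs.

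HFD male libraries held 15112509 to 20615240 counts and HFD female libraries 12433228 to 23676048. Xist stood at 0.243 to 1.99 CPM in HFD males and 752 to 846 CPM in HFD females, and summed Y-linked genes at 163 to 183 and 0 to 2.66 CPM, so the sex of all 8 libraries fitted the labels. The genes with any count numbered 22280 to 23986 in HFD males, against 19404 in HFD female 2, 17130 in HFD female 3, 13813 in HFD female 1 and 13225 in HFD female 4. Of the genes detected, 22.6% to 31.1% had only 1 to 9 counts in HFD males, against 4.4% to 8.18% in HFD females, so the female libraries stand apart. The part of this in the results was not tested. Of the abundant autosomal genes, 6 had 0 counts in HFD female 1, 15 in HFD female 4 and none in the other 6 libraries. Replicates spread more among HFD females, where the median SD over the members was 0.296 on the log2 scale, against 0.136 in HFD males and 0.0893 to 0.178 in the ND and LPD groups. All 10 β-cell markers looked at, Pdx1, Mafa and Slc2a2 among them, were members. Markers of other cells were present too. Ductal markers summed to 790.0 to 978 CPM in HFD males and 963 to 1110.0 CPM in HFD females, and neuronal and neuroendocrine markers to 661 to 766 CPM in HFD males and 776 to 950.0 CPM in HFD females. Endothelial and stromal markers summed to 104 to 123 CPM in HFD males and 92.6 to 135 CPM in HFD females, and immune markers to 39.2 to 53.6 CPM in HFD males and 42.6 to 95 CPM in HFD females. The defining genes Pecam1, Col1a1 and Ptprc stood at 0 to 1.24 TMM CPM, which is CPM after scaling libraries by trimmed means (TMM).

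Most abundant autosomal genes stood at like levels in both sexes, and 95.6% of the genes that reached 20 CPM in both differed by less than 1.5-fold. The median difference, males minus females, was 0.01 on the log2 scale over the members and 0.07 over all 16235 genes tested. The fit of the 8 HFD libraries (edgeR, quasi-likelihood F test) called 48 members at an adjusted p below 0.05, of which 31 rose and 17 fell in HFD males. That is 0.693% of the members, against 0.37% of all genes tested, 0.234% higher and 0.136% lower. Here and below, the genes tested include those of chromosomes X and Y, whereas the members do not. At an unadjusted p below 0.05, 592 members were higher and 554 lower. The libraries of the sexes did not overlap at 857 members, or 12.4% (6.79% higher and 5.59% lower in HFD males), against 10.2% of all genes tested (7.08% higher and 3.12% lower). Of the 857, 77 reached 20 CPM in HFD males only, all higher, and 65 in HFD females only, all lower. The rule itself favoured these directions. Of the 6210 members that reached it in both sexes, 393 were higher and 322 lower without overlap. At all 48 called genes the libraries of the sexes did not overlap. Of the 48, 42 reached 20 CPM in both sexes, 4 in HFD males only and 2 in HFD females only. The called differences had medians of 1.05 for the higher and -0.77 for the lower genes. The count moved with single libraries. It was 18, 4, 4 and 11 without HFD male 1, 2, 3 and 4 in turn, and 22, 167, 20 and 48 without HFD female 1, 2, 3 and 4. Without both HFD female 1 and 4 it was 108, of which 39 were among the 48. The excess of rises over falls was not kept in every fit, with 258 higher and 347 lower in the DESeq2 Wald test, 63 and 66 with quality weights in limma-voom, and 21 and 27 without HFD female 4. All 48 genes kept their sign in each alternative fit of the HFD columns. With columns matched by library number instead, 40 genes were called and 7 of them were among the 48.

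**Figure D1:**
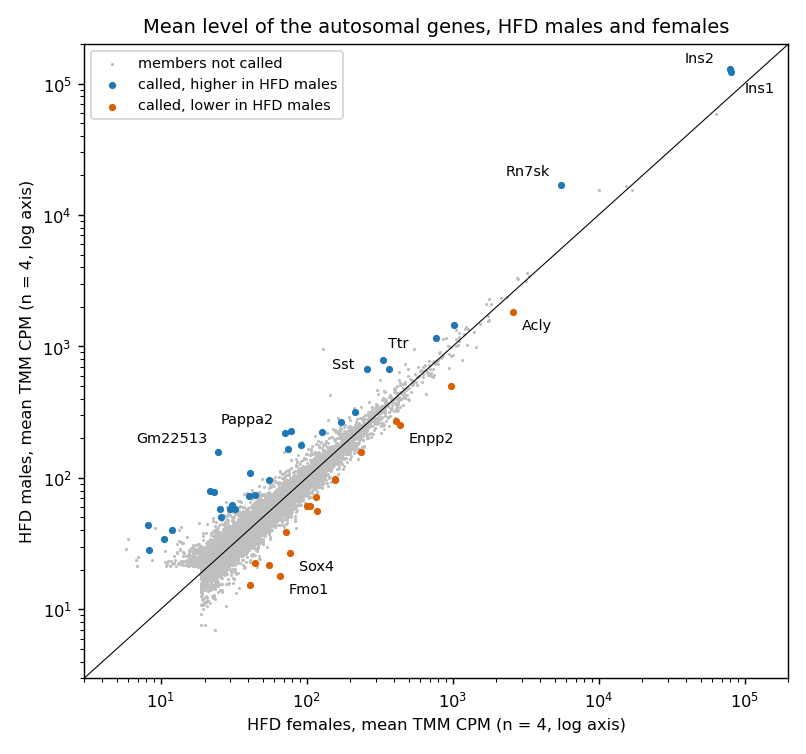
Mean level of each abundant autosomal gene in HFD males (vertical) and HFD females (horizontal), in TMM CPM on log axes, 4 libraries each, with the line of equal levels. The 31 genes called higher in HFD males lie above the line and the 17 called lower below it, while most of the 6922 genes follow it.

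Ttr and Pappa2 were the protein-coding genes with the smallest adjusted p. Ttr encodes transthyretin, a carrier of thyroid hormone and retinol made in liver and islets (ENSMUSG00000061808.4, chromosome 18, 20665280 to 20674321, GRCm38). Its level was 786, 801, 812 and 740.3 TMM CPM in HFD males, against 260.0, 329.6, 380.4 and 362 TMM CPM in HFD females, and every male library held about the same. The difference was 1.25 ± 0.12 SE, edgeR adjusted p = 0.00143, or 2.38-fold, and the adjusted p stayed between 0.00064 and 0.0367 when any 1 library was left out. Pappa2 encodes a secreted protease that frees insulin-like growth factors from their binding proteins (ENSMUSG00000073530.11, chromosome 1, 158711727 to 158980490). It stood at 289, 181, 203 and 211 TMM CPM in HFD males, against 94.2, 53.8, 77.2 and 60.3 TMM CPM in HFD females, a difference of 1.65 ± 0.19 SE, edgeR adjusted p = 0.00734 with no overlap between the sexes. With the small RNA Rn7sk, these were the 3 genes called in all alternatives they entered. Dapl1, death-associated protein like 1, had 35.4, 50.1, 45.4 and 30.0 TMM CPM in HFD males, against 11.5, 7.20, 19.9 and 8.90 TMM CPM in HFD females. It reached 20 CPM in HFD males only. All males lay above all females (1.77 ± 0.32 SE, edgeR adjusted p = 0.048).

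**Figure D2:**
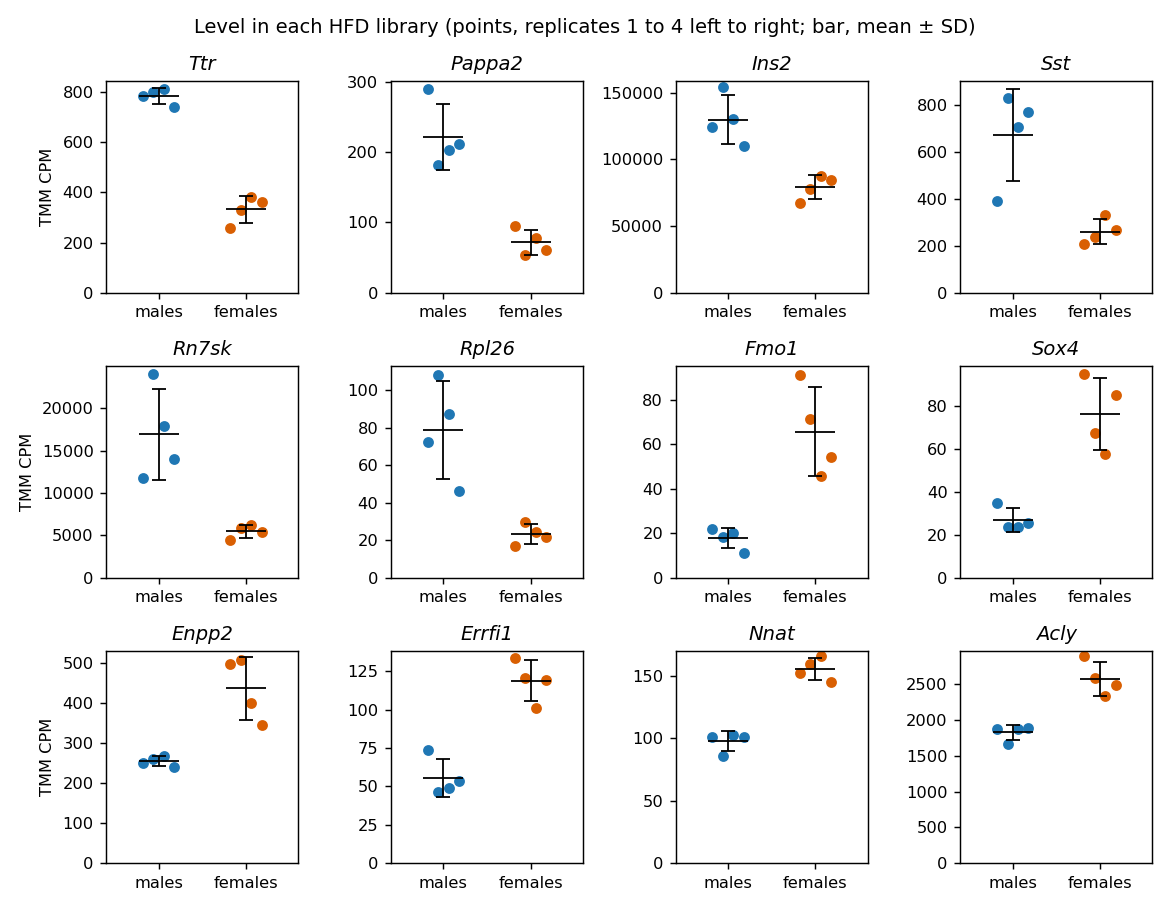
Level in each HFD library of 12 called genes in TMM CPM, from 0, with males left and females right, 1 point a library and the mean ± SD of 4. Males and females do not overlap for any of the 12, and for Ttr the 4 male libraries span only 740.3 to 812 TMM CPM.

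Both insulin genes rose in HFD males. Ins2 had 124326, 154234, 130041 and 110173 TMM CPM in HFD males, against 66890.4, 77371, 87381 and 84133 TMM CPM in HFD females, so that the lowest male stood above the highest female (0.73 ± 0.11 SE, edgeR adjusted p = 0.0239, 1.66-fold). Ins1 had 116070.0, 142982, 133181 and 100527 TMM CPM in HFD males, against 70723, 76315, 90192 and 84242 TMM CPM in HFD females (0.63 ± 0.11 SE, edgeR adjusted p = 0.0489, 1.55-fold). The Ins2 call was lost in the fit of all 24 libraries, where the difference was 0.72 (adjusted p = 0.206), and when HFD male 1, 2 or 3 or HFD female 1 or 3 was left out (0.63 to 0.79, adjusted p = 0.0658 to 0.129). The Ins1 call was lost when any of 7 libraries was left out. Ins1 and Ins2 are close copies of each other, and how reads that fit both were counted is not given in the sources used here. Of 22 members on the list of insulin production and granule cargo, 6 were higher and 3 lower without overlap, against 6.79% and 5.59% of all members. Of the 22, 3 rose and 1 fell, with a median of 0.16 against 0.01 over all members, of which 0.693% were called. The other gene that rose was Scg5, which encodes 7B2, the chaperone of prohormone convertase PC2, at 1361 to 1547 TMM CPM in HFD males, against 908 to 1081 TMM CPM in HFD females (0.53 ± 0.09 SE, edgeR adjusted p = 0.0279). Nnat, the imprinted gene for neuronatin, fell (-0.66 ± 0.10 SE, edgeR adjusted p = 0.0217), at 101, 85.9, 103 and 102 TMM CPM in HFD males, against 153, 159.5, 166 and 146 TMM CPM in HFD females. Iapp, the hormone amylin of the same granules, stood at 0.64 ± 0.16 (adjusted p = 0.152), Chgb at -0.53 ± 0.10 (adjusted p = 0.0503) and Npy at -0.99 ± 0.21 (adjusted p = 0.0888). The convertase genes Pcsk1 and Pcsk2 stood at 0.05 and 0.06.

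Sst, the somatostatin of δ cells, rose as well. Its level was 390.1, 829, 706 and 769.8 TMM CPM in HFD males, against 207, 238, 329 and 266 TMM CPM in HFD females, with HFD male 1 the lowest male and still above every female (1.39 ± 0.22 SE, edgeR adjusted p = 0.026). Among 9 members of the list of other islet endocrine markers, Sst and Ttr were called, 7 were above 0 and the median was 0.78. Over all members, 0.693% were called. Gcg, the glucagon gene of α cells, had 99.0, 1000.4, 692 and 662 TMM CPM in HFD males, against 471, 469.8, 791 and 794 TMM CPM in HFD females, and the sexes overlapped widely (-0.03 ± 0.49, adjusted p = 0.995). Ppy and Pyy, pancreatic polypeptide and peptide YY, stood at 1.0 ± 0.46 and 0.78 ± 0.52 (adjusted p = 0.57 and 0.776), again with HFD male 1 at the low end. Hhex, the transcription factor that defines δ cells, was no member, at 1.74 to 2.09 TMM CPM in HFD males and 0 to 3.92 TMM CPM in HFD females. The 22 listed markers summed to 1840 to 3500 CPM in HFD males and 1720 to 2430 CPM in HFD females, and 4 of them were higher and none lower without overlap. Over all genes tested, 7.08% were higher and 3.12% lower without overlap. In such bulk samples, a difference in the number of δ cells and one in the RNA of each cell cannot be told apart. The hepatocyte markers, which Ttr is also part of, summed to 888 to 1010 CPM in HFD males and 576 to 830 CPM in HFD females. Ttr alone averaged 744 CPM in HFD males and 354 CPM in HFD females. The 4 members of this list had a median of -0.30, with 2 above 0. Of its 41 genes, 2 were higher and 2 lower in HFD males without overlap, beside the same 7.08% and 3.12% of all genes tested. Alb, albumin, stood at -0.81 ± 0.26 (adjusted p = 0.288). All 9 acinar members were above 0 with none called, and the summed list held 327 to 580 CPM in HFD males and 143 to 570 CPM in HFD females. The part of these cells in the results was not tested.

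The 3 largest rises in HFD males were those of small RNA genes. Rn7sk, the 7SK RNA that holds the elongation factor P-TEFb inactive, had 11727, 24007, 17925 and 14072 TMM CPM in HFD males, against 4477, 5862, 6286 and 5392 TMM CPM in HFD females (1.63 ± 0.20 SE, edgeR adjusted p = 0.01). Its lowest male library stood well above the highest female. Gm22513, annotated as a small nuclear RNA of 164 bases, had 99.3, 326, 62.8 and 146 TMM CPM in HFD males, against 17.9, 28.8, 28.5 and 24 TMM CPM in HFD females (2.68 ± 0.43 SE, edgeR adjusted p = 0.0279), the largest difference among the called genes and one that spread widely among males. Gm25395 and Gm22009, small Cajal body RNAs that guide the modification of spliceosomal RNA, differed by 1.89 ± 0.25 and 2.44 ± 0.42, the small nucleolar RNA Snord17 by 1.77 ± 0.30, and Gm24447 and Gm24514, annotated as miscellaneous RNA, by 1.72 ± 0.24 and 1.54 ± 0.21. Of 21 members with a small RNA biotype, 20 were above 0, 7 were called higher and 14 did not overlap, with a median of 1.72. Over all members, 0.693% were called and 12.4% did not overlap. Of these 21, 10 reached 20 CPM in HFD males only, among them Gm24447, Snord17 and Gm22009, so that the rule itself fixed their direction, and the counts and median over the 21 are a description. The 10 that reached it in both sexes had a median of 1.61, with 7 not overlapping and 4 called. All 21 together took 2.03% of the counts in HFD males and 0.786% in HFD females. Their median was 0.15 under ND and 0.90 under LPD. Many have near-identical copies, and Gm22009, Gm25395 and Snord17 lie inside the coding genes Kpna4, Atg16l1 and Snx5, so their counts are uncertain. Without HFD female 1 and 4 the median was 1.56 and 9 were called higher, and without single libraries 2 to 11 were called, with 2 without HFD male 2, 3 or 4 and 11 without HFD female 2.

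Genes of the cytosolic ribosome stood higher in HFD males almost throughout. Of 73 members, 72 were above 0 and 37 did not overlap, all of them higher, with a median of 0.56, and 4 were called. Of the 73, 1 reached 20 CPM in HFD males only. The 72 that reached it in both sexes had a median of 0.55, with 71 above 0. Over all members, 6.79% were higher without overlap and 0.693% were called. Under LPD, 29 of the 73 were also higher in males without overlap and 0 lower, while under ND there were 0 either way. Rpl26 had 72.4, 108, 87.5 and 46.4 TMM CPM in HFD males, against 17.0, 29.8, 24.3 and 21.6 TMM CPM in HFD females (1.77 ± 0.26 SE, edgeR adjusted p = 0.0204), and Rpl34 had 50.3, 65.6, 64.2 and 50.0 TMM CPM in HFD males, against 22.7, 26.3, 25.4 and 26.8 TMM CPM in HFD females (1.20 ± 0.15 SE, edgeR adjusted p = 0.0125). For both, the sexes were well apart. Rps14 rose by 0.89 ± 0.16 (adjusted p = 0.0416). Rpl38, Rpl41 and Rps16 narrowly missed the threshold (0.82 ± 0.15, 0.83 ± 0.16 and 0.68 ± 0.13, adjusted p = 0.0503, 0.0551 and 0.0551), and Rps2 was the 1 member below 0 (-0.04 ± 0.14). Ribosomal protein genes have many processed pseudogenes that can share their reads. Over the 8 fits that left out 1 library each, the median stayed between 0.47 and 0.60, and it was 0.42 without HFD female 1 and 4, when 7 were called higher. Single libraries moved the count of calls, to 0 without HFD male 2 or 3, 1 without HFD female 3, 2 without HFD male 4 and 14 without HFD female 2.

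Nuclear genes for oxidative phosphorylation, the chain of complexes that makes ATP in mitochondria, stood in the same direction. Of 66 members, 62 were above 0, 17 did not overlap, all higher in HFD males, and 3 were called, with a median of 0.44. Of these 66, 4 reached 20 CPM in HFD males only, which fixed their direction. The 62 that reached it in both sexes had a median of 0.39, with 58 above 0, 16 not overlapping and 3 called. Over all members, 6.79% were higher without overlap and 0.693% were called. Under LPD, 16 of the 66 were also higher in males without overlap and 0 lower, while under ND 0 were higher and 6 lower. Atp5e, the ε subunit of ATP synthase, had 142, 186, 165 and 172 TMM CPM in HFD males, against 57.8, 87.5, 91.7 and 61.2 TMM CPM in HFD females (1.17 ± 0.17 SE, edgeR adjusted p = 0.0204). Ndufa2, an accessory subunit of complex I, had 65.1, 73.8, 73.9 and 79.7 TMM CPM in HFD males, against 36.0, 39.2, 47.1 and 39.0 TMM CPM in HFD females (0.87 ± 0.13 SE, edgeR adjusted p = 0.0217). All males lay above all females at both. Cox6a1 and Atp5j2 stood at 0.88 ± 0.16 and 0.77 ± 0.15 (adjusted p = 0.0503 and 0.0601). The genes for the catalytic ATP synthase subunits, Atp5a1 and Atp5b, stood at 0.17 ± 0.09 and 0.02 ± 0.09 and overlapped between the sexes. The median over the list was 0.31 without HFD female 1 and 4, when 6 were called. No gene was called without HFD male 2, 3 or 4, 1 without HFD male 1, 2 without HFD female 4 and 10 without HFD female 2. Proteasome subunits (34 members, median 0.16) held no called gene.

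**Figure D3:**
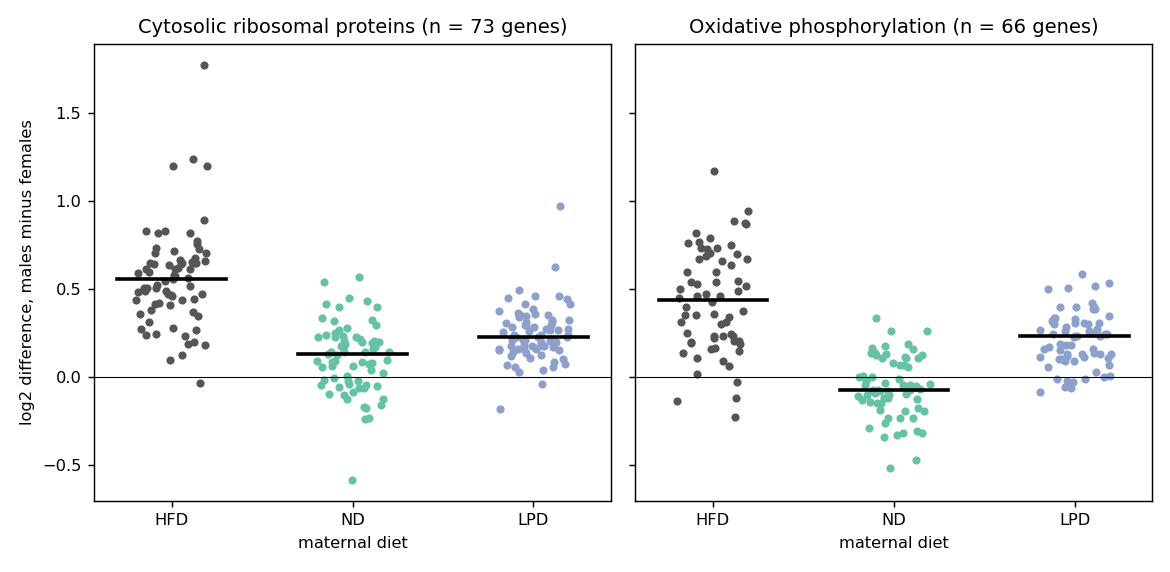
Log2 difference, males minus females, of each member of the ribosomal protein list (73 genes, left) and the oxidative phosphorylation list (66 genes, right) under each maternal diet, 1 point a gene, with the median as a line. The HFD medians of 0.56 and 0.44 stand above those under ND (0.13 and -0.07) and LPD (0.23 for both).

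Other genes that rose had varied roles. H4c12, a histone H4 gene, had 74.6, 114, 124 and 127 TMM CPM in HFD males, against 41.3, 52.8, 39.6 and 31.2 TMM CPM in HFD females (1.42 ± 0.20 SE, edgeR adjusted p = 0.0197), and the linker histone gene H1f2 differed by 0.57 ± 0.09, both from families of near-identical copies. Spc25, part of the kinetochore complex that attaches chromosomes to the spindle, had 156 to 200.1 TMM CPM in HFD males, against 72.1 to 114 TMM CPM in HFD females (0.97 ± 0.15 SE, edgeR adjusted p = 0.0217). Nucb2, the precursor of the peptide nesfatin, had 256, 265, 282 and 269.6 TMM CPM in HFD males, against 151, 199, 170.2 and 163 TMM CPM in HFD females (0.66 ± 0.10 SE, edgeR adjusted p = 0.0239). In the endoplasmic reticulum, Fkbp11, a prolyl isomerase, and Dpm3, a subunit of the enzyme that makes dolichol-phosphate mannose for glycosylation, rose by 0.97 ± 0.18 and 1.05 ± 0.18. Akr1c14, an aldo-keto reductase that acts on steroids, rose by 0.96 ± 0.16, at 48.5, 59.1, 51.7 and 40.8 TMM CPM in HFD males, against 22.7, 26.1, 29.4 and 25.4 TMM CPM in HFD females. Tasp1, a protease that cleaves the MLL histone methyltransferase, rose by 0.87 ± 0.15, and 1810037I17Rik and 1500011B03Rik, for which no role is given here, by 0.81 ± 0.14 and 0.76 ± 0.13. At each of these genes, all males stood above all females. Genes inside or across others cannot be told apart where strand was not used in counting, as for Rps14 with Ndst1, Ndufa2 with Tmco6, Cebpd with Spidr, Nnat with Blcap and Fam155a with noncoding loci.

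Among the 17 genes that fell in HFD males, the largest fitted difference was that of Fmo1. With Lrp8, it reached 20 CPM in HFD females only, so that the rule fixed the direction of both, while the other 15 reached it in both sexes. Fmo1 encodes a flavin-containing monooxygenase that oxidises drugs and other nitrogen and sulfur compounds (ENSMUSG00000040181.14, chromosome 1, 162829561 to 162866610). It had 21.8, 18.4, 20.2 and 11.2 TMM CPM in HFD males, against 91.0, 71.2, 45.6 and 54.4 TMM CPM in HFD females, so that the highest male lay far below the lowest female (-1.86 ± 0.26 SE, edgeR adjusted p = 0.0197). Sox4, a transcription factor of endocrine development, had 34.9, 23.6, 23.5 and 25.7 TMM CPM in HFD males, against 95.1, 67.6, 58.0 and 85.1 TMM CPM in HFD females (-1.49 ± 0.19 SE, edgeR adjusted p = 0.0125). Lrp8, the receptor for reelin and apolipoprotein E, had 11.0, 16.1, 17.4 and 16.5 TMM CPM in HFD males, against 34.3, 35.0, 53.1 and 41.9 TMM CPM in HFD females (-1.42 ± 0.22 SE, edgeR adjusted p = 0.0239). Again males and females were apart. Cebpd, a bZIP transcription factor induced by stress and cytokines, had 16.7, 18.9, 19.8 and 30.9 TMM CPM in HFD males, against 47.7, 52.1, 54.4 and 65.8 TMM CPM in HFD females (-1.33 ± 0.21 SE, edgeR adjusted p = 0.0241). Errfi1, a feedback inhibitor of the EGF receptor, had 73.4, 46.1, 49.2 and 53.2 TMM CPM in HFD males, against 134, 121, 101 and 119 TMM CPM in HFD females (-1.09 ± 0.15 SE, edgeR adjusted p = 0.0204).

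Several of the other genes that fell act in signalling, the cytoskeleton or lipid metabolism. Enpp2 encodes autotaxin, which makes the signalling lipid lysophosphatidic acid, and had 249.7, 259, 267 and 238 TMM CPM in HFD males, against 495, 506, 398 and 343 TMM CPM in HFD females (-0.77 ± 0.13 SE, edgeR adjusted p = 0.0317). Males were tightly grouped and females were not. Gnai2, an inhibitory G protein subunit, differed by -0.57 ± 0.10 and Pla2g2f, a secreted phospholipase A2, by -0.58 ± 0.10. Fam155a, an accessory subunit of the sodium leak channel, differed by -0.77 ± 0.12, Zbtb7b, a zinc finger transcription factor, by -0.88 ± 0.15 and Hspa2, a chaperone of the HSP70 family, by -0.96 ± 0.17. For the cytoskeleton, Myh14, a nonmuscle myosin heavy chain, had 66.6, 55.0, 60.2 and 64.5 TMM CPM in HFD males, against 103, 94.0, 98.7 and 108 TMM CPM in HFD females (-0.70 ± 0.10 SE, edgeR adjusted p = 0.0217), while the actin-binding supervillin gene Svil and the septin gene Sept9 differed by -0.69 ± 0.11 and -0.67 ± 0.12. Acly, the ATP citrate lyase that supplies acetyl-CoA for fatty acid synthesis, had 1881, 1668, 1877 and 1884 TMM CPM in HFD males, against 2903, 2595, 2332 and 2496 TMM CPM in HFD females (-0.49 ± 0.09 SE, edgeR adjusted p = 0.0416), the smallest of the called differences. It was the only call among 26 members for sterol and fatty acid synthesis, while 0.693% of all members were called. Gm38070, an experimentally unsettled transcript inside Il1r1, the interleukin receptor gene, differed by -0.94 ± 0.14.

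No called gene stood among 24 β-cell transcription factors, of which 9 were above 0, with a median of -0.04. Mafa, an activator of insulin transcription, had 884, 653, 655 and 948 TMM CPM in HFD males, against 1138, 1222, 1078 and 1173 TMM CPM in HFD females. All 4 males lay below all 4 females, but the test did not pass (-0.54 ± 0.13, adjusted p = 0.114). Pdx1 and Nkx6-1, which keep β-cell identity, stood at -0.10 ± 0.10 and -0.21 ± 0.11, and the zinc finger factors Myt1 and St18 at -0.05 ± 0.09 and -0.00 ± 0.12 (adjusted p of at least 0.652). Ucn3, a marker of mature β cells, stood at -0.14 ± 0.10. Among 16 members for glucose sensing and excitability, none was called. The glucose transporter gene Slc2a2 stood at 0.13 ± 0.09. Of 17 receptors that tune insulin secretion, 4 were above 0 and none was called, Glp1r for the incretin glucagon-like peptide at -0.45 ± 0.09 (adjusted p = 0.0812) and the prolactin receptor gene Prlr at -0.27 ± 0.12 (adjusted p = 0.561). Both Mafa and Glp1r passed in the fit of all 24 libraries, in DESeq2 and with quality weights.

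Among the remaining lists, sex hormone and prolactin signalling had 18 members with a median of -0.21 and no call, and the prolactin targets Cish and Socs2 stood at -0.45 ± 0.14 and -0.36 ± 0.17 (adjusted p = 0.271 and 0.567). Of 44 chromatin and DNA methylation genes, 9 were above 0 and none was called, with Chd3 and Arid1a, both chromatin remodellers, at -0.68 ± 0.14 and -0.45 ± 0.09 (adjusted p = 0.075 and 0.0734). The unfolded protein response and chaperones of the endoplasmic reticulum had 30 members with a median of 0.10. Its chaperone BiP (Hspa5) stood at 0.14 ± 0.10 and Atf4, the effector of the integrated stress response, at 0.31 ± 0.09 (adjusted p = 0.825 and 0.221). Glycolysis and the citrate cycle had 36 members with a median of -0.00 and 18 above 0. No member of the lists for heat shock chaperones, oxidative defence, fatty acid oxidation, the circadian clock, immediate early genes or the cell cycle was called. These lists do not hold every gene of their kind, and the called genes Hspa2 and Spc25 are in none of them.

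The direction of the difference moved with the length of the gene in the count table. The 35 members of up to 500 bases had a median of 1.35, with 18 higher, none lower without overlap and 8 called higher. Over all members, 6.79% were higher and 5.59% lower without overlap, and 0.693% were called. Of these 35, 14 reached 20 CPM in HFD males only, which fixed their direction, and the 21 that reached it in both sexes had a median of 0.997, with 18 above 0, 10 higher without overlap and 5 called. The medians were 0.52 for 85 genes of over 500 and up to 1000 bases (0.49 for the 72 that reached 20 CPM in both sexes), 0.23 for 452 of up to 2000, 0.02 for 1708 of up to 4000 and -0.02 for 4642 genes over 4000 bases. In the longest class, 206 genes were higher and 295 lower without overlap, and 1 was called higher and 11 lower. Called genes that rose had a median length of 1312 bases and those that fell 5591 bases, against 5336.5 bases over all members. The shortest classes stood at 0.15 and 0.04 under ND and at 0.64 and 0.23 under LPD. Of the small RNA genes, 20 of 21 had at most 500 bases. Of the ribosomal genes 12 of 73 and of the oxidative phosphorylation genes 13 of 66 had at most 1000 bases, with median lengths of 1781 and 1778.5 bases. The part of length in the results was not tested. When only genes over 1000 bases were fitted, a fit added after seeing the data, 37 members were called, 19 higher and 18 lower. Of the 48 genes, 12 that rose and 0 that fell had at most 1000 bases and could not enter this fit. Its split of rises and falls was thus partly fixed by the genes left in. Of the others, 35 kept the call and 1 lost it.

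**Figure D4:**
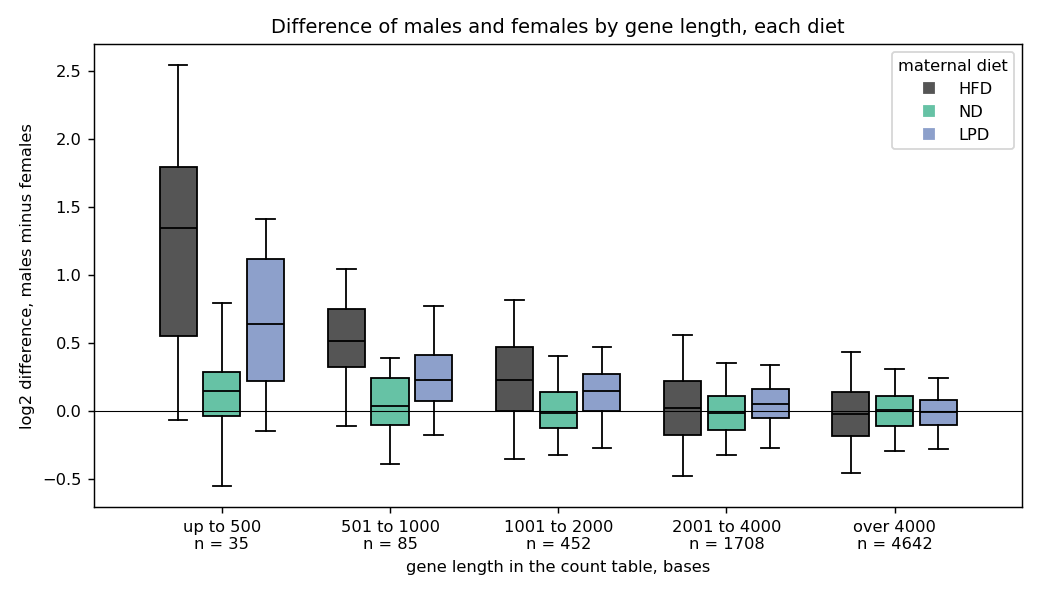
Log2 difference, males minus females, of the members by gene length class (horizontal, with the number of genes) under each maternal diet. Boxes span the quartiles with the median as a line and whiskers the bulk of the genes (percentiles 5 to 95). The HFD medians are 1.35 and 0.52 in the shortest classes and -0.02 over 4000 bases.

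Whether sons and daughters differed in the same way under other maternal diets was asked in the fit of all 24 libraries, which gives the difference of each diet from 1 source. HFD libraries enter both comparisons. The fit of 24 libraries pools the spread of all groups, while HFD females spread more than any other group. Its p-values can therefore be too small. For HFD males against HFD females it called 774 members, against 48 in the fit of the HFD libraries alone. With quality weights in limma-voom, the departures numbered 19 for ND and 17 for LPD. The difference under HFD departed from that under ND at 244 members, 3.52%, against 3.64% of all 19235 genes tested, with 134 more positive and 110 more negative under HFD. It departed from that under LPD at 60 members, 0.867%, against 2.65% of all genes tested (25 more positive, 35 more negative). At an unadjusted p below 0.05 the counts were 1422 and 832. Of the 48 called genes, 25 departed from ND and 10 from LPD. The 48 were chosen for their difference under HFD, which is also a part of both tests. These counts, and the departures of single called genes below, are therefore a description. Among the 31 that rose under HFD, 21 were above 0 under ND and 30 under LPD, 6 and 15 of them without overlap. Over all members, 50.8% were above 0 under ND and 54% under LPD, and 8.68% and 4.94% were higher without overlap. Among the 17 that fell, 14 were below 0 under ND and 14 under LPD, 6 and 3 without overlap, against 6.72% and 3.52% of all members lower without overlap. The medians of the genes that rose were 0.07 under ND and 0.45 under LPD, and of those that fell -0.26 and -0.55.

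**Figure D5:**
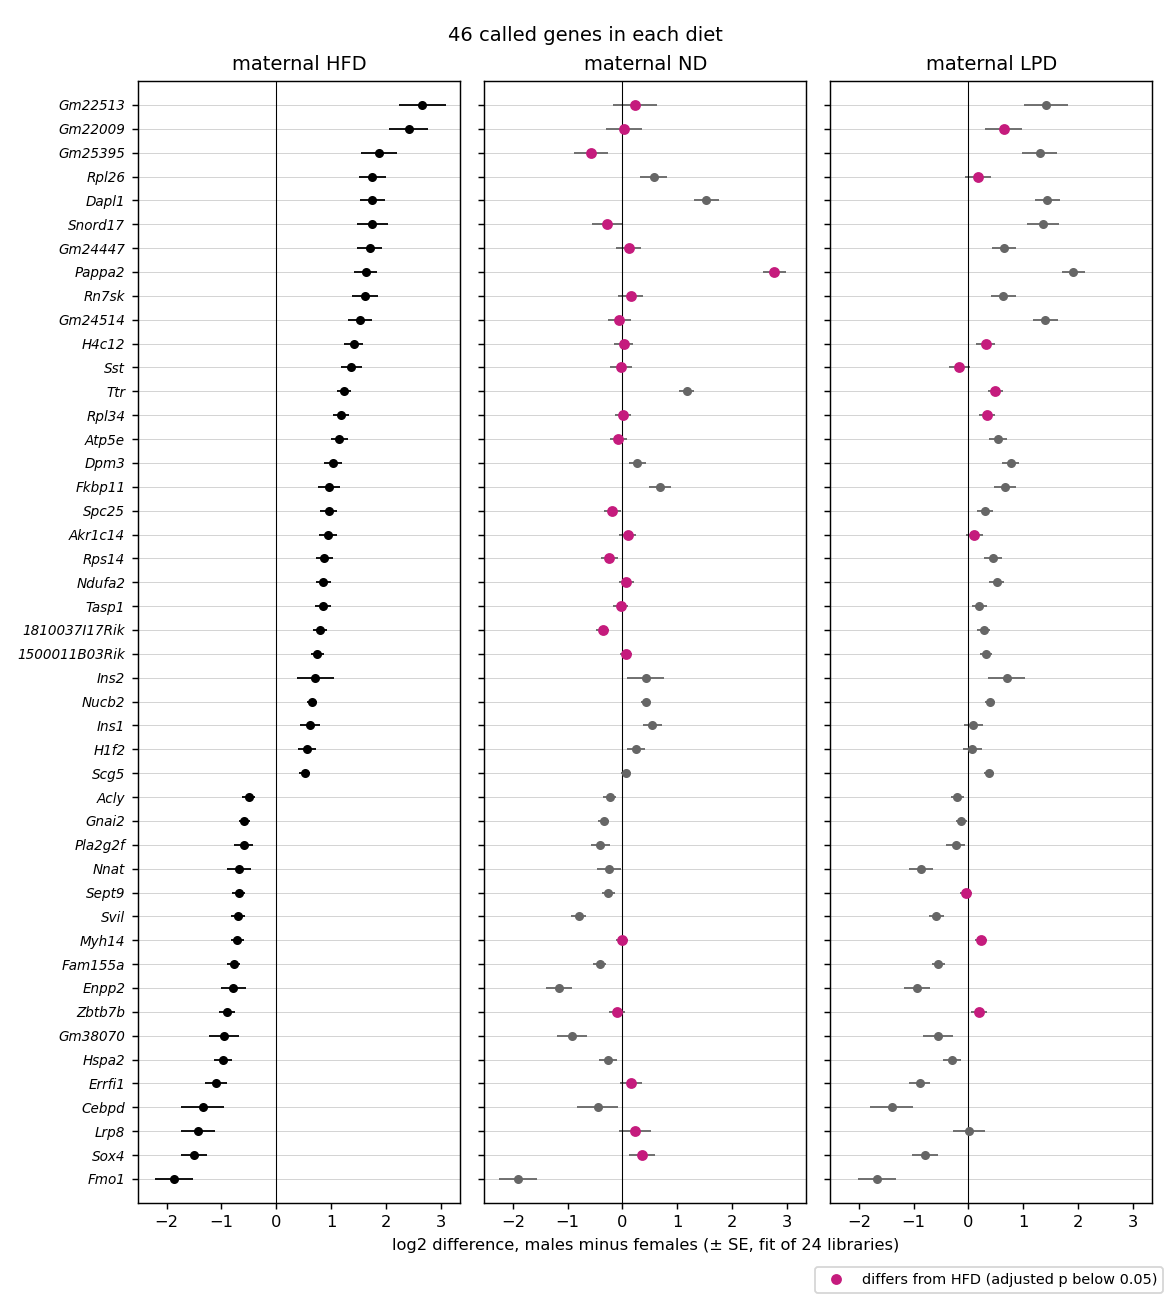
Log2 difference, males minus females, of 46 of the 48 called genes (rows) under each maternal diet, ± SE from the fit of 24 libraries. Coloured points mark genes whose difference departed from that under HFD, 24 under ND and 10 under LPD. The genes were chosen for their difference under HFD, which is part of that test.

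Some genes kept 1 direction under all diets. Fmo1 differed by -1.87 ± 0.35 under HFD, -1.91 ± 0.35 under ND and -1.67 ± 0.35 under LPD. Enpp2 (-0.78 ± 0.23, -1.15 ± 0.23 and -0.94 ± 0.23), Svil (-0.70 ± 0.13, -0.80 ± 0.13 and -0.59 ± 0.13) and Dapl1 (1.76 ± 0.23, 1.53 ± 0.23 and 1.44 ± 0.23) stood on the same side under HFD, ND and LPD in that order. Pappa2 was higher in males under every diet, by 1.63 ± 0.21 under HFD, 2.78 ± 0.21 under ND and 1.91 ± 0.21 under LPD. The difference was smaller under HFD than under ND (adjusted p = 0.0235), and the departure from LPD did not pass (-0.28 ± 0.28, adjusted p = 0.765). It averaged 221 ± 46.9 TMM CPM in HFD males, 654 ± 96.6 in ND males and 527 ± 55.3 in LPD males (SD, n = 4 each), while females of the 3 diets averaged 71.4, 95.5 and 140.0. Ttr stood at 1.24 ± 0.14 under HFD, 1.17 ± 0.14 under ND and 0.49 ± 0.13 under LPD, and the last was smaller (adjusted p = 0.029). For Ins1 and Ins2, the departures from ND and LPD did not pass (adjusted p of at least 0.352).

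Other called genes differed between the sexes under HFD and little or the other way under another diet. Sox4 differed by -1.50 ± 0.24 under HFD against 0.36 ± 0.23 under ND (adjusted p = 0.00323) and -0.79 ± 0.24 under LPD. Its mean level was 26.9 ± 5.43 TMM CPM in HFD males and 76.4 ± 16.7 in HFD females, against 49.9 ± 2.85 and 38.8 ± 9.60 in ND males and females. Sst stood at 1.37 ± 0.20 under HFD, -0.02 ± 0.19 under ND and -0.17 ± 0.19 under LPD (adjusted p = 0.00653 and 0.00287). It averaged 674 ± 196 TMM CPM in HFD males and 260.1 ± 52.0 in HFD females, 486 ± 120.0 and 495 ± 95.1 in ND males and females, and 401 ± 50.9 and 451 ± 31.7 in LPD males and females. Rpl34, Atp5e, H4c12 and Rn7sk stood near 0 under ND, at 0.01 ± 0.15, -0.07 ± 0.16, 0.02 ± 0.17 and 0.15 ± 0.23, with adjusted p from 0.00287 to 0.0126 for the departure. Myh14 and Zbtb7b departed from both diets, at -0.01 ± 0.12 and -0.10 ± 0.14 under ND and 0.23 ± 0.12 and 0.18 ± 0.14 under LPD.

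The members with the smallest p for a departure from ND included Dnajc24, a co-chaperone in the synthesis of diphthamide, Vamp4, a SNARE of the trans-Golgi network, and Ppia, the cyclophilin A gene. Dnajc24 stood at 0.67 ± 0.13 under HFD against -0.59 ± 0.13 under ND (adjusted p = 0.000636), Vamp4 at 0.65 ± 0.10 against -0.33 ± 0.10 (adjusted p = 0.000641) and Ppia at 0.53 ± 0.12 against -0.44 ± 0.12 (adjusted p = 0.00294). All 3 were positive under HFD and negative under ND, though none was called within HFD alone. Dusp7, a phosphatase that turns off ERK kinases, had the smallest p against LPD, at -0.82 ± 0.15 under HFD and 0.39 ± 0.15 under LPD (adjusted p = 0.00253). Mafa departed from LPD too, at -0.55 ± 0.18 under HFD and 0.35 ± 0.18 under LPD (adjusted p = 0.0479).

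Promoters of the called genes were searched, on both strands, for 3 motifs read by factors of sex hormones and prolactin, to print any stretch that members share. These were the estrogen response element GGTCANNNTGACC, the androgen response element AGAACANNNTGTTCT and the STAT5 motif TTCNNNGAA of prolactin signalling, in RefSeq promoters of GRCm38.p6 from 250 bases before to 50 after the start site. Of the 48 genes, 27 had a promoter in the table. None held either hormone element, which 0.07% and 0.00913% of all 32851 promoters do. Counted by gene, with a match in any of its promoters, the STAT5 motif stood at 2 of 18 genes that rose and 0 of 9 that fell. Of all promoters, counted singly and so not in the same unit, 8.3% held it. The gene Scg5 held it in 2 adjoining copies, shown in capitals (chr2:113829123-113829152, minus strand, 61 to 32 bases before the start site).
Scg5: aatgccTTCCAGGAATTCTGGGAAggcctc
A match is a run of letters, and binding was not measured here. At the limit of 20 CPM, the genes just outside were Prkrip1 and Gyg with means of 16.4 and 16.8 CPM in HFD males and 19.9955 and 19.9993 CPM in HFD females. Just inside were Ddx10 and Nop9 with 12.7 and 13.4 CPM in HFD males and 20.0041 and 20.0064 CPM in HFD females.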

How the data were processed

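Per the labels, RNA of sorted β cells was depleted of ribosomal RNA and sequenced in strand-specific libraries. The submitters' processing notes name cutadapt 2.10, STAR 2.7.8a, HOMER, DESeq2 and GRCm38.p6. The program that counted reads, the gene annotation and any use of strand were not given in the sources used here. Raw counts per gene were deposited by the authors, not normalized, in 1 table of 24 libraries. A second table of FPKM values was not used. Members and lists were chosen with earlier results of these data known.

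The 8 HFD libraries were fitted with edgeR 4.0.16 in R 4.3.3 (TMM scaling, filterByExpr, quasi-likelihood F test, Benjamini-Hochberg adjustment over all genes tested, threshold 0.05). Differences between diets came from 1 fit of all 24 libraries. Levels are TMM CPM, CPM of the TMM-scaled library size. The limit of 20 CPM used plain library totals. Genes were named by rule: the 12 largest called differences in each direction, up to 4 called genes per list, a fixed set of β-cell genes, the 5 smallest p for each difference between diets, and the genes at the limit. Spc25, Nucb2, H1f2, Dpm3, Gnai2, Tasp1, Akr1c14, Pla2g2f, 1500011B03Rik, Sept9 and Fkbp11, and uncalled genes given as examples of a list, were named after their values were seen. Some genes that the rule names are not reported here. The tests were tried on simulated data: of changed genes, the HFD comparison called 10% at a log2 difference of 0.5, 58% at 1 and 100% at 2, and 0.0413% of unchanged genes. The simulation gave both sexes the same spread at each gene, whereas HFD females spread more than HFD males. These shares may therefore not hold for the data. Alternatives used DESeq2 1.42.0, limma 3.58.1, other filters and scaling, and left-out libraries.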

Additional observations from a re-analysis of the deposited data

Results flagged for a closer look

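Single libraries stood apart from the other 3 of their set in 5 of 126 sets looked at, over 63 genes, where chance gives about 1 in 20. Among HFD males, Nnat was low in male 2 at 85.9 TMM CPM, and Acly was low in the same library at 1668 TMM CPM. In HFD female 4, Pdx1 stood at 264 TMM CPM and Tasp1 at 25.3 TMM CPM. Gm22009 was high in HFD female 3 at 15.5 TMM CPM.

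The sex difference under HFD departed from that under ND at 28 of the named or called genes, by the edgeR test of the difference itself. Of all genes tested, 3.64% departed. Some of the 28 were named for a small p in this test. Most others were chosen for their difference under HFD, which is part of the test. The count is therefore a description. That test pools the spread of all groups, so its p-values can be too small. The log2 values that follow are the difference under HFD minus that under ND. They were positive for Gm25395 (2.45), Gm22513 (2.44), Gm22009 (2.39), Snord17 (2.03), Gm24447 (1.59), Gm24514 (1.58) and Rn7sk (1.47) among small RNA genes. Ribosomal and mitochondrial genes gave 1.18 for Rpl34, 1.11 for Rps14, 1.23 for Atp5e and 0.79 for Ndufa2. Sst gave 1.40, H4c12 1.39, Dnajc24 1.27, 1810037I17Rik 1.16, Spc25 1.14, Vamp4 0.98, Ppia 0.96, Tasp1 0.89, Akr1c14 0.85 and 1500011B03Rik 0.68. They were negative for Sox4 (-1.87), Lrp8 (-1.66), Errfi1 (-1.25), Pappa2 (-1.14), Dusp7 (-0.99), Zbtb7b (-0.79) and Myh14 (-0.71).

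Against LPD, 14 genes chosen in the same way departed by the same test, while 2.65% of all genes tested did. HFD minus LPD was positive for Gm22009 (1.77), Rpl26 (1.59), Sst (1.54), Gm49542 (1.22), H4c12 (1.10), Rpl34 (0.85), Akr1c14 (0.84), Ttr (0.75) and Vamp4 (0.63). It was negative for Dusp7 (-1.21), Zbtb7b (-1.08), Myh14 (-0.94), Mafa (-0.91) and Sept9 (-0.64).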

How the results depend on the processing

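Of 48 called members, the DESeq2 Wald test gave 605, limma-voom with quality weights 129, no filter on low counts 79, a filter of 20 CPM over all libraries 172, the fit of 24 libraries 774, and the fit without HFD female 1 and 4 gave 108. Leaving out 1 library gave 4 to 167. Against the 244 departures from ND, quality weights gave 19, of which 18 were among the 244. DESeq2 gave 483 and no filter 154. Single libraries moved this to between 95 and 614, with 113 and 121 without HFD male 2 and 3, 614 and 418 without HFD female 2 and 3, 109, 146, 111 and 152 without ND male 1 to 4, and 95 without ND female 3. Against the 60 departures from LPD, quality weights gave 17, of which only 7 were among the 60. DESeq2 gave 171, the stricter filter 4 and the 16 libraries of both diets 4. Single libraries moved this to between 23 and 280, with 25 and 23 without HFD male 2 and 3, 95, 280 and 168 without HFD female 1 to 3, 30, 23 and 211 without LPD male 1, 3 and 4, and 32, 34 and 38 without LPD female 1 to 3. With DESeq2 size factors in edgeR the LPD count split 25 positive to 57 negative, against 25 to 35. The cause was not tested. The median over all genes was 0.29 without a filter and 0.24 with the replicate block, against 0.07.

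Males and females of 1 replicate number correlated at 0.0678, 0.0118, 0.0753 and 0.0279, and those of different numbers at -0.0893 to 0.0473. These values do not settle whether replicate numbers pair the samples. With the replicate block, 40 members were called, 32 higher and 8 lower, 27 of them among the 48, and the departures numbered 197 and 46. For single genes, 936 alternatives kept the side of the threshold, 273 lost the call, 31 gained it and 0 reversed. In the simulated data, where both sexes had the same spread, a difference of 0.5 on the log2 scale was mostly under what 4 libraries a group could call.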
